A study of Rattus norvegicus with 288 samples.

Results

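Sorafenib, an oral drug that inhibits several protein kinases, was given to rats and the RNA of their left kidney was measured 6 h later. The 16 arrays described here are those whose title names kidney and 6 h together with sorafenib or its vehicle, of 96 kidney arrays and 288 arrays in the whole series. All rats were male Sprague-Dawley rats of 8 weeks that carried a catheter, and each array held the RNA of 1 rat. A first group of 4 rats received an intravenous infusion of 5% dextrose in water (D5W) over 30 min and then the oral vehicle F68/PG/PEG400, which is made of the surfactant Pluronic F68 with propylene glycol and polyethylene glycol and is called F68 below. The second group of 4 received D5W and then sorafenib at 25 mg/kg in that vehicle. In the third group of 4, oxaliplatin at 15 mg/kg was infused over 30 min in place of D5W and F68 followed, and the fourth group of 4 received oxaliplatin and then sorafenib. The oral dose followed the infusion by 30 min, and F68 and sorafenib rats were dosed on the same day. Every rat therefore received an infusion and the F68 mixture, and no untouched rats were in these groups. The question put to the data was which kidney genes differed between sorafenib and F68, after each infusion and on average over both.

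Sorafenib binds the ATP site of the receptor kinases for VEGF and PDGF, and of Kit, Flt3 and Ret. VEGF made by podocytes and tubule cells keeps the fenestrated capillaries of the kidney open, PDGF receptors mark its pericytes and mesangial cells, and the related receptor Csf1r maintains its resident macrophages. Drugs of this class are known for raised blood pressure and protein in the urine, and receptor blockade in vessels is known to alter a set of endothelial genes.

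The values are log2 expression values from a whole-genome Affymetrix rat array. The 16 arrays carried kidney RNA: 11 kidney marker genes had medians between 13.14 and 13.52 log2, and 11 heart marker genes lay between 5.02 and 5.32. The 14 liver markers had medians of 6.07 to 6.63 on 15 arrays and of 8.39 on replicate 4 of sorafenib after D5W, on which Alb, the liver's albumin, read 12.74. Several counts of called genes and the fall of C1qb are given with and without this array, and the other gene values include it. It held the highest Cxcr4 (9.15) and the lowest Itgax (6.40) of the 16 arrays. The 4 arrays of F68 after oxaliplatin had hybridization controls (BioB) of 7.66 to 8.07, below the 8.29 to 8.74 of the other 12. The number in the sample code is 07 on every F68 array here and 08 on every sorafenib array, so that what the code marks, which is not given in the sources used here, cannot be told apart from the oral dose.

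Averaged over both infusions, few kidney genes were called as changed by sorafenib at 6 h, and mostly by less than 2-fold. Of 12309 genes tested with limma, 55 passed an adjusted p of 0.05 (0.447%), 30 higher (0.244%) and 25 lower (0.203%). An unadjusted p under 0.05 was reached by 1209 of the 12309, the background for the list counts at that limit below. The genes with the largest rises encode the chemokine Ccl6, the endothelial proteoglycan Esm1, the chemokine receptor Cxcr4 and the myeloid receptor Clec7a. The genes with the largest falls encode the lysosomal transporter Slc15a3, the antibody receptor Fcgr3a, the leukocyte integrin Itgax and the IgM receptor Fcmr. The median difference over all tested genes was 0.01 log2, and 1 gene, Ccl6, changed by 2-fold or more.

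Of the 55 genes, 54 had the same sign after D5W and after oxaliplatin, and Cox14 was the exception. The genes were called on the average of both differences, which by itself favours equal signs, so this count is no separate support. The 8 sorafenib values did not overlap the 8 F68 values in 11 of them, namely Esm1, Ints7, Cd200, Ramp3, Chrm3, Ccl4, Lcp1, Trpc6, Fcmr, Itgax and Slc15a3, where 19 of all tested genes (0.154%) were separated in this way. The number of called genes leaned on single rats: it was 22 without replicate 2 of F68 after oxaliplatin, 29 without replicate 1 of sorafenib after oxaliplatin, 33 without replicate 2 of sorafenib after D5W, and 51 without the array with raised liver markers. It was 16 when the spread was estimated from these 16 arrays alone.

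Ccl6, a chemokine of rodent myeloid cells, gave the largest rise. It read 9.45, 9.46, 10.57 and 9.65 in the 4 rats given D5W and F68, and 10.65, 10.85, 11.18 and 10.92 with sorafenib. After oxaliplatin it read 9.45, 9.63, 8.89 and 9.24 with F68 and 10.41, 10.53, 10.85 and 10.51 with sorafenib. Every sorafenib value lay above every F68 value but that of replicate 3 of F68 after D5W, and the rise was 2.29-fold, 1.19 ± 0.14 log2 (adjusted p = 1.09e-08, limma).

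Esm1, or endocan, is secreted by endothelial cells, above all those at the tips of growing vessels. Its values were 9.66, 9.54, 10.22 and 9.76 with F68 and 10.32, 10.76, 10.30 and 10.39 with sorafenib after D5W, and 9.17, 9.68, 9.50 and 9.67 with F68 and 10.87, 10.32, 10.89 and 10.29 with sorafenib after oxaliplatin. All 8 sorafenib values lay above all 8 F68 values, with a difference of 0.86 ± 0.17 log2 (adjusted p = 0.00198). Cxcr4, the receptor of the chemokine Cxcl12, which is also found on endothelial tip cells and leukocytes, read 7.67, 7.41, 8.29 and 7.70 with F68 and 8.08, 8.46, 8.23 and 9.15 with sorafenib after D5W. After oxaliplatin it read 7.95, 7.99, 7.60 and 7.77 with F68 and 8.36, 8.19, 8.51 and 8.48 with sorafenib. Replicate 3 of F68 after D5W lay above replicates 1 and 3 of sorafenib after D5W and replicate 2 of sorafenib after oxaliplatin. The rise was 0.64 ± 0.11 log2 (adjusted p = 0.000273). The probe set used for Cxcr4 is of the kind that can bind related transcripts, but its other probe sets read 0.80 and 0.85 log2 higher with sorafenib.

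Clec7a, a receptor of macrophages and dendritic cells for fungal glucans, rose by 0.52 ± 0.10 log2 (adjusted p = 0.00103). Its sorafenib values were 8.81, 8.96, 8.87 and 9.08 after D5W, above all 4 F68 values of 8.24, 8.21, 8.60 and 8.15. After oxaliplatin they were 8.60, 8.81, 8.78 and 8.79, against 8.38, 8.71, 7.80 and 8.47 with F68, where 1 F68 rat reached the sorafenib range. Map2k6, the kinase that activates p38, read 8.47, 8.51, 8.79 and 8.67 with F68 and 9.02, 8.76, 9.23 and 8.94 with sorafenib after D5W, and 7.92, 8.18, 8.14 and 8.26 with F68 and 8.52, 8.60, 8.64 and 8.65 with sorafenib after oxaliplatin. The level was lower throughout after oxaliplatin, and the rise of 0.43 ± 0.08 log2 was alike in both (adjusted p = 0.000624). Ints7, a subunit of the Integrator complex that processes nascent RNA, rose by 0.31 ± 0.07 log2 (adjusted p = 0.0123) with no overlap between the 8 and 8 rats, from 8.17 to 8.62 with F68 against 8.66 to 8.88 with sorafenib. Ighvl1 rose by 0.47 ± 0.10 log2 (adjusted p = 0.0123). Its F68 values ran from 5.925 to 6.571, near the limit of 6 log2 used to keep genes, and a stricter filter dropped it.

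The other named rises were smaller and less stable. Mylip, a ubiquitin ligase for the LDL receptor, rose by 0.38 ± 0.09 log2, Cpd, a carboxypeptidase of the secretory pathway, by 0.34 ± 0.09, and Simc1 by 0.33 ± 0.08. Rgs2, which damps signalling by G protein-coupled receptors of vasoconstrictors, rose by 0.31 ± 0.08, and Edn1, the vasoconstrictor peptide endothelin-1, by 0.31 ± 0.08 log2. Edn1 read 6.29, 6.73, 6.72 and 6.65 with F68 and 7.36, 7.07, 6.94 and 6.82 with sorafenib after D5W, but 6.72, 6.74, 6.60 and 6.80 with F68 and from 6.67 to 7.02 with sorafenib after oxaliplatin, where the groups overlapped. The adjusted p of these genes ran from 0.0341 for Edn1 to 0.0449 for Cpd, and each of the 5 lost the call in at least 12 of its 28 or 29 alternative fits. A second probe set of Cpd read -0.06 log2, so its rise rests on 1 probe set.

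**Figure D1:**
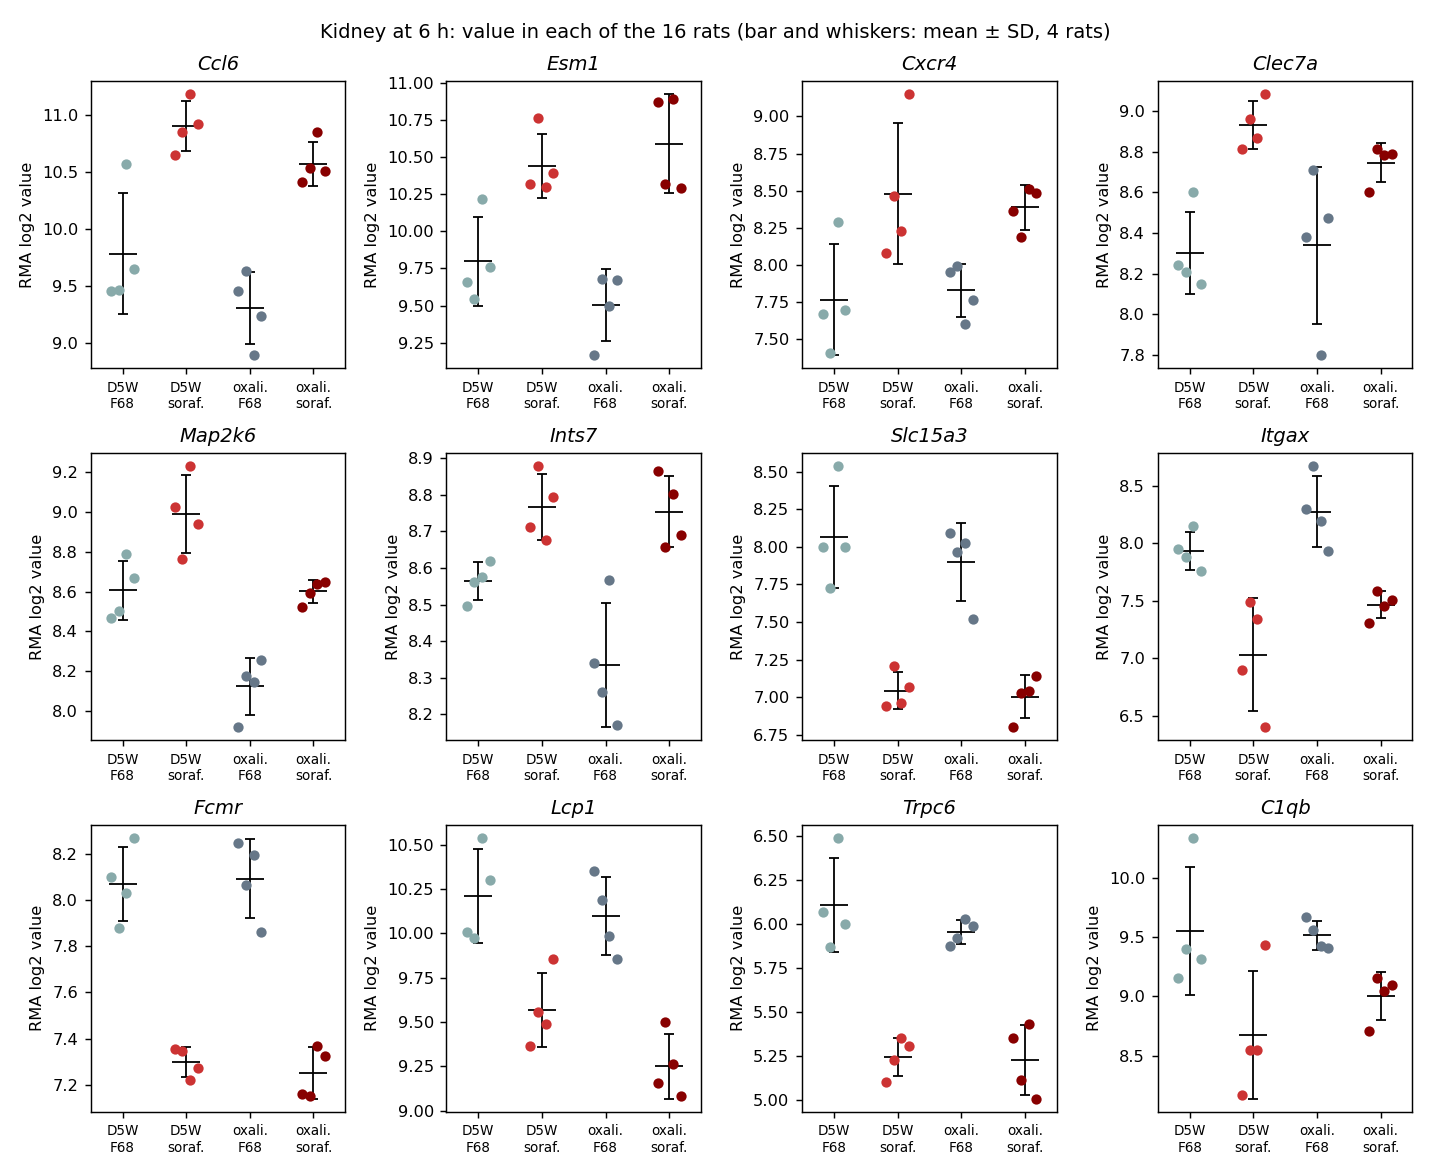
Log2 expression value (y axis) of 12 genes in each of the 16 kidneys at 6 h, by infusion and oral dose (x axis); each point is 1 rat, and the bar and whiskers are the mean and SD of 4 rats. In Esm1, Ints7, Slc15a3, Itgax, Fcmr, Lcp1 and Trpc6 the sorafenib and F68 rats do not overlap, and in Ccl6 and C1qb 1 or more rats cross.

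The named falls begin with genes known from leukocytes, a kind of gene that is also among the rises (Ccl6, Clec7a and Cxcr4). In whole kidney, fewer cells of a type and less RNA per cell cannot be told apart. Slc15a3, which exports histidine and peptides from lysosomes of myeloid cells, gave the largest fall. It read 8.00, 7.73, 8.54 and 8.00 with F68 and 6.94, 7.21, 6.96 and 7.07 with sorafenib after D5W, and 8.09, 7.97, 8.02 and 7.52 with F68 and 6.80, 7.03, 7.04 and 7.14 with sorafenib after oxaliplatin. No sorafenib rat reached the lowest F68 rat, and F68 exceeded sorafenib 1.94-fold (log2 difference -0.96 ± 0.11, adjusted p = 1.22e-08).

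The next falls by size were Fcgr3a, Itgax and Fcmr. Itgax, the integrin chain CD11c of dendritic cells and macrophages, read 7.95, 7.88, 8.15 and 7.76 with F68 and 6.89, 7.49, 7.34 and 6.40 with sorafenib after D5W, and 8.30, 8.67, 8.19 and 7.93 and 7.30, 7.58, 7.46 and 7.51 after oxaliplatin. Its groups did not overlap, and the difference was -0.86 ± 0.14 log2 (adjusted p = 0.000188). Itgb2, the chain that pairs with Itgax, fell too (-0.42 ± 0.09 log2, adjusted p = 0.00945), with overlap in the rats given D5W. Fcmr, the receptor for IgM, read 8.10, 7.88, 8.03 and 8.27 with F68 and 7.36, 7.35, 7.22 and 7.27 with sorafenib after D5W, and 8.24, 8.06, 8.20 and 7.86 and 7.16, 7.15, 7.37 and 7.32 after oxaliplatin. The sorafenib rats lay close together, all of them below the F68 rats, and the difference was -0.81 ± 0.14 log2 (adjusted p = 0.000419). Fcgr3a, an activating receptor for IgG, fell by 0.93 log2 with a larger SE of 0.21 (adjusted p = 0.0151). Its F68 values after D5W were 8.96, 9.55, 10.30 and 8.75 and its sorafenib values 7.58, 8.35, 8.29 and 8.94, so that 1 rat of each crossed. Fcgr1a, the high-affinity IgG receptor, fell by 0.54 log2 (adjusted p = 0.00136).

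Further named falls were Lcp1, Coro1a, Apbb1ip and Ccl4. Lcp1, an actin bundler of blood cells, read 10.01, 9.97, 10.54 and 10.30 with F68 and 9.37, 9.56, 9.49 and 9.86 with sorafenib after D5W, and 10.35, 10.19, 9.99 and 9.86 and 9.15, 9.50, 9.26 and 9.08 after oxaliplatin. All 8 sorafenib values lay at or below 9.86, at the edge of the lowest F68 value of 9.86, and the difference was -0.74 ± 0.13 log2 (adjusted p = 0.000273). Coro1a, a regulator of actin in leukocytes, fell by 0.67 log2 and Apbb1ip, which links the GTPase Rap1 to integrins, by 0.57 log2 (adjusted p = 0.00918 and 0.00182). A second probe set of Apbb1ip, with a mean of 3.96 log2, read 0.03. The chemokine Ccl4 fell by 0.55 log2 (adjusted p = 0.0151), with sorafenib values from 7.66 to 8.27 and F68 values from 8.36 to 9.14. The antigen-loading chain RT1-DMa fell by 0.52 log2 (adjusted p = 0.00918). A list of 8 genes of MHC class II antigen presentation was chosen after these values were seen. Of these 8, RT1-DMa passed as lower (0.203% of all genes did) and 7 did not pass, and the median of the 8 was -0.07 log2.

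Trpc6 encodes a cation channel of podocytes and vascular smooth muscle, whose mutations cause inherited glomerular disease. It read 6.07, 5.87, 6.49 and 6.00 with F68 and 5.11, 5.23, 5.35 and 5.31 with sorafenib after D5W, and 5.88, 5.92, 6.03 and 5.99 and 5.35, 5.12, 5.43 and 5.01 after oxaliplatin. All 8 sorafenib values lay below all 8 F68 values, with a difference of -0.79 ± 0.10 log2 (adjusted p = 6.74e-08). All 8 sorafenib values lay below the limit of 6 log2 used to keep genes, and the F68 values, from 5.87 to 6.49, lay on both sides of it. The mean over the kidney arrays was 5.91. Arrays over the limit include F68 arrays of this comparison and no sorafenib array of it. The size of this difference is therefore uncertain, and the stricter filter dropped the gene. Ramp3, a partner of the adrenomedullin receptor, fell by 0.39 log2, Chrm3, a muscarinic acetylcholine receptor, by 0.41 log2, and Cd200, a surface protein that restrains myeloid cells, by 0.37 log2 (adjusted p = 0.0282, 0.0221 and 0.0316). Their groups did not overlap. Mab21l3 fell by 0.61 log2 (adjusted p = 0.0449), and Ccnd2, a cyclin, by 0.45 log2 (adjusted p = 0.0319). The groups overlapped for Mab21l3, and it lost the call in 15 of its 29 alternative fits. Fcgr3a lost it in 7 and Ccl4 in 6, and every other named fall in at most 2. Smaller falls were called in Dram1, Ly6c, Ndrg1, Nherf2 and Acss1, from -0.42 to -0.23 log2.

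**Figure D2:**
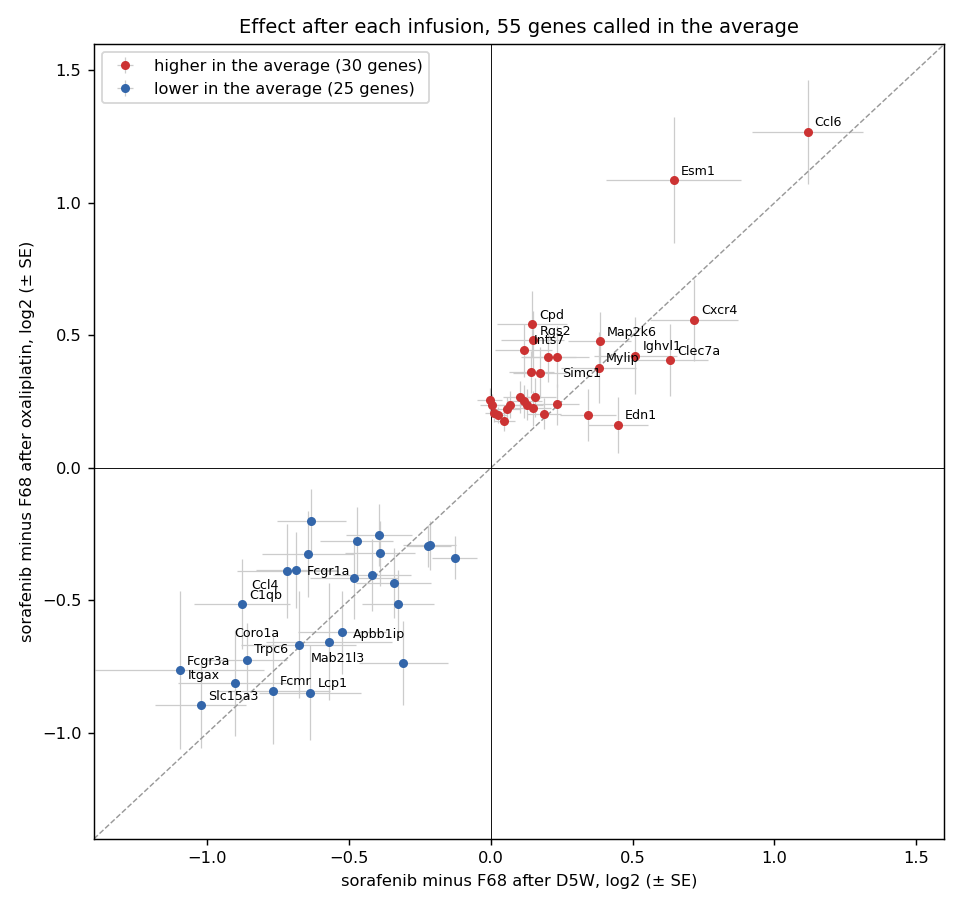
Log2 difference between sorafenib and F68 after D5W (x axis) and after oxaliplatin (y axis) for the 55 genes called in the average; points are genes, grey bars are standard errors, and the dashed line marks equal effects. All but Cox14 have the same sign after both, which the choice of genes by their average favours. A cluster of small rises sits close to 0 on the x axis and near 0.2 on the y axis.

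The effect was also taken after each infusion alone, with 4 rats against 4. After D5W, 9 genes passed (0.0731%), 3 higher and 6 lower: Ccl6, Cxcr4 and Clec7a rose, and Dram1, Fcgr1a, Trpc6, C1qb, Itgax and Slc15a3 fell, each of them also called in the average. Slc15a3 fell by 1.02 log2 and Ccl6 rose by 1.12 log2 there. Without replicate 3 of F68 after D5W, 5 genes passed, and without the array with raised liver markers 8. After oxaliplatin, 67 genes passed (0.544%), 55 higher and 12 lower, led by Ccl6 (1.27 ± 0.20 log2, adjusted p = 5.63e-05) and Esm1 (1.09 ± 0.24 log2, adjusted p = 0.0158). Of the 55 genes of the average, 27 passed after oxaliplatin and 4 after both infusions. This count fell to 11 without replicate 2 of F68 after oxaliplatin, to 20 without replicate 4 of that group, and to 22, 24, 17 and 31 without replicates 1 to 4 of sorafenib after oxaliplatin. When arrays were quantile-normalized again, 126 genes passed, 87 higher and 39 lower.

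The difference between both infusions was tested as an interaction. No gene of 12309 passed (0%) in limma, with 479 at an unadjusted p under 0.05 and a smallest adjusted p of 0.448, so a larger effect after one infusion was not shown for any gene. The 4 rats in each group limit this test. Of the 30 rises, 24 were larger after oxaliplatin, and of the 25 falls, 15 were larger after D5W. The 12 rises of at most 0.2 log2, singled out after their values were seen, were all among those 24. Cox6b1, of cytochrome c oxidase, read 13.72, 13.64, 13.78 and 13.69 with F68 and 13.71, 13.73, 13.78 and 13.72 with sorafenib after D5W, and 13.60, 13.55, 13.62 and 13.52 with F68 and 13.75, 13.77, 13.78 and 13.79 with sorafenib after oxaliplatin. Atp5pf, of ATP synthase, read 0.01 log2 higher after D5W and 0.21 log2 higher after oxaliplatin, and Cox14, an assembly factor, -0.00 and 0.26 log2. In Cox6b1 the 4 arrays of F68 after oxaliplatin were the low ones, and these are the 4 arrays with low hybridization controls. With the control value as a covariate, 302 genes passed after oxaliplatin and 119 in the average, and the part of the control in these small rises was not tested further.

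Of 18 macrophage markers tested, 4 were lower (22.2%, against 0.203% of all genes) and none was higher. A negative difference was seen in 16 of 18, with a median of -0.24 log2 against 0.01 over all genes. Like the other lists, this one was chosen with earlier results of these data known, which limits what these shares show at 6 h and at 24 h. C1qb, a chain of the complement protein C1q, read 9.15, 9.40, 10.34 and 9.31 with F68 and 8.17, 8.54, 8.55 and 9.44 with sorafenib after D5W, and 9.67, 9.56, 9.43 and 9.41 and 8.71, 9.16, 9.05 and 9.09 after oxaliplatin. The groups were apart after oxaliplatin, and after D5W replicate 4 of sorafenib, the array with raised liver markers, lay within the F68 range. The fall was -0.70 ± 0.12 log2 (adjusted p = 0.000273), and -0.82 log2 without that array. C1qc fell by 0.49 log2 (adjusted p = 0.0263) and Cx3cr1, the receptor for fractalkine on patrolling monocytes and tissue macrophages, by 0.36 log2 (adjusted p = 0.0316); the last called marker was Fcgr1a. Mrc1 (-0.61 log2, adjusted p = 0.151), C1qa (-0.46 log2, adjusted p = 0.0983) and Tyrobp (-0.37 log2, adjusted p = 0.105) did not pass. The general markers Cd68 (-0.08 log2), Itgam (-0.06 log2) and Cd14 (-0.05 log2) and the antigen F4/80, Adgre1 (0.16 log2), stood near 0.

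The count of lower macrophage markers was 1 when only these 16 arrays entered the fit or when every kidney array was kept as labelled, 2 without any one of replicates 1 to 3 of sorafenib after D5W, replicate 3 of F68 after D5W, replicates 1 or 2 of F68 after oxaliplatin, or replicate 1 of sorafenib after oxaliplatin, and 5 without the array with raised liver markers. Replicate 3 of F68 after D5W held the highest values of the 16 rats for C1qb, Fcgr3a, Fcgr1a, Coro1a, Apbb1ip, Slc15a3, Lcp1, Ccl4 and Trpc6. The per-rat median of the 18 markers ran from 8.70 to 9.18 with F68 and from 8.18 to 8.88 with sorafenib after D5W, and from 8.41 to 8.67 and from 8.43 to 8.63 after oxaliplatin, so this median overlapped after both. In the lists of other leukocytes, 0 of 15 lymphocyte markers (median -0.05 log2, 0 at an unadjusted p under 0.05) and 0 of 2 neutrophil markers passed in limma. In the same arrays the chemokine Ccl6 and the receptor Clec7a, both made by myeloid cells, rose.

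**Figure D3:**
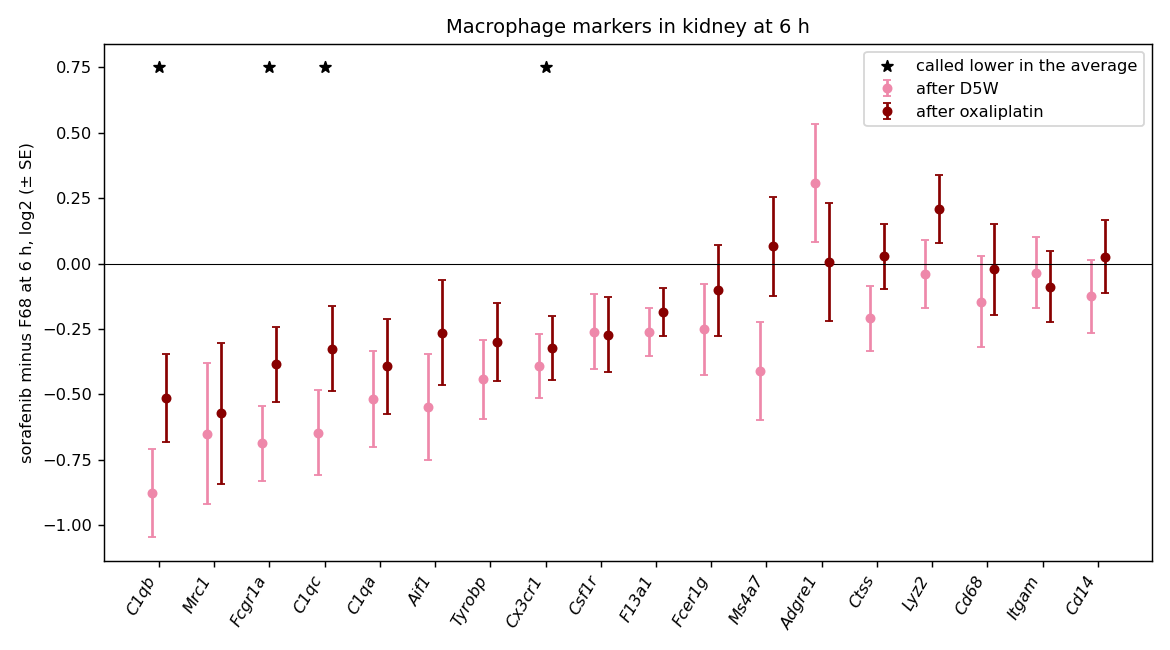
Log2 difference between sorafenib and F68 at 6 h (y axis) for 18 macrophage markers (x axis, ordered by the size of the average difference), after D5W and after oxaliplatin; points are limma estimates, bars are standard errors, and stars mark markers called lower in the average. The 11 markers at the left lie below 0 after both infusions, while those at the right scatter around it.

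No member of the list of genes that interferons induce passed, and genes outside this list were not counted. Of 28 tested, 0 were called in limma, 15 had an unadjusted p under 0.05 and 25 had a negative difference, with a median of -0.26 log2 in the average, -0.42 log2 after D5W and -0.12 log2 after oxaliplatin. The per-rat median of the list overlapped after both infusions: it ran from 8.41 to 9.19 with F68 and from 8.04 to 8.67 with sorafenib after D5W, and from 8.22 to 9.02 and from 8.25 to 8.94 after oxaliplatin. Mx1, an antiviral GTPase, read 7.58, 7.18, 8.45 and 7.78 with F68 and 5.79, 7.62, 6.08 and 6.67 with sorafenib after D5W, and 8.15, 7.30, 7.19 and 6.16 and 6.51, 6.87, 7.51 and 7.18 after oxaliplatin, a difference of -0.70 ± 0.28 log2 (adjusted p = 0.357). Isg15 (-0.56 ± 0.21 log2, adjusted p = 0.3), Ifit3 (-0.55 ± 0.21 log2) and the chemokine Cxcl10 (-0.52 ± 0.24 log2) did not pass either. In Mx1 the 4 rats given oxaliplatin and F68 were further apart than the group means were. In the list of acute inflammation, Ccl4 passed as lower (0.203% of all genes did) and 25 of 26 did not pass. Among the latter was Il1b at -0.49 ± 0.21 log2 (adjusted p = 0.381).

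Of the 12 listed kinases that sorafenib inhibits, 10 were measured and the others were not analysed here. Of these 10, 0 passed in limma and 3 had an unadjusted p under 0.05, with a median of -0.07 log2. Csf1r, the receptor that keeps macrophages alive, read 9.15, 8.87, 9.75 and 9.32 with F68 and 8.62, 9.17, 8.89 and 9.37 with sorafenib after D5W, and 9.11, 9.04, 8.96 and 8.93 and 8.76, 8.81, 8.87 and 8.53 after oxaliplatin (-0.27 ± 0.10 log2, adjusted p = 0.3). Its groups were apart after oxaliplatin and overlapped after D5W. Pdgfrb, the PDGF receptor of pericytes and mesangial cells, stood at -0.26 ± 0.11 log2 (adjusted p = 0.384) and Kdr, the main VEGF receptor of endothelium, at -0.20 ± 0.08 log2 (adjusted p = 0.336). Kit (-0.11 ± 0.07 log2), Flt1 (-0.09 ± 0.07 log2), Ret (-0.05 ± 0.06 log2), Flt3 (-0.04 ± 0.08 log2) and Flt4 (-0.01 ± 0.05 log2) were lower by at most 0.11 log2, and Fgfr1 (0.09 ± 0.06 log2) and Pdgfra (0.01 ± 0.09 log2) higher by at most 0.09 log2.

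Of 22 vessel genes that depend on VEGF signals, Esm1 and Cxcr4 rose (against 0.244% of all genes) and 20 did not pass, with a median of -0.04 log2. Angpt2, the tip-cell ligand of the Tie2 receptor, was at 0.44 ± 0.23 log2 (adjusted p = 0.528), with F68 values from 7.37 to 9.36 after D5W that spanned most of the sorafenib range. Nos3, the endothelial nitric oxide synthase, was at -0.44 ± 0.20 log2 (adjusted p = 0.433), and Dll4, a Notch ligand of tip cells, at 0.12 ± 0.06 log2 (adjusted p = 0.486). Of 15 ligands of the VEGF, angiopoietin and PDGF families and their neighbours, Esm1 alone was called, as higher (0.244% of all genes were). Vegfa itself stood at -0.09 ± 0.05 log2 (adjusted p = 0.562). Of 32 endothelial markers, 0 passed in limma with 9 at an unadjusted p under 0.05, and their median was 0.00 log2. Vwf, the platelet-binding factor stored in endothelium, read 8.57, 8.56, 8.94 and 8.99 with F68 and 9.95, 9.91, 9.54 and 9.57 with sorafenib after oxaliplatin, with no overlap, but replicate 1 of F68 after D5W read 10.33 and the average of 0.76 ± 0.20 log2 did not pass (adjusted p = 0.0692).

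Of 17 targets of the ERK kinases, 0 passed in limma, 3 had an unadjusted p under 0.05 and the median was 0.05 log2. Etv1 (0.39 ± 0.13 log2), Ccnd1 (0.27 ± 0.10 log2), Dusp6 (0.24 ± 0.12 log2) and Spry2 (0.20 ± 0.07 log2) were positive and Myc (-0.26 ± 0.13 log2) negative. Of 28 immediate early genes 0 passed, with 1 at an unadjusted p under 0.05. In the list of vascular tone, Edn1 was called higher (0.244% of all genes were) and 29 of 30 genes were not called. Among the latter was the angiotensin receptor Agtr1b at 0.44 ± 0.15 log2 (adjusted p = 0.23).

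Lists for podocytes and tubule segments were counted next, and Trpc6, a called fall described above, is on none of them. Of 23 podocyte genes, 36 proximal tubule genes, 22 genes of the loop and distal tubule and 23 collecting duct genes, 0 passed in limma in each list, with 2, 2, 2 and 3 at an unadjusted p under 0.05, and the medians lay between -0.05 and 0.00 log2. Examples are Ptpro of podocytes (-0.22 ± 0.09 log2, adjusted p = 0.365), the lactate transporter Slc5a12 of the proximal tubule (-0.35 ± 0.14 log2, adjusted p = 0.335) and the sodium channel subunit Scnn1a (-0.27 ± 0.11 log2, adjusted p = 0.387). Of 31 kidney injury markers 0 passed, with 5 at an unadjusted p under 0.05: Havcr1, the marker KIM-1 of tubule damage, stood at -0.35 ± 0.23 log2 (adjusted p = 0.695). Over all 43 lists, 36 had no member called and 38 had a median between -0.1 and 0.1 log2. In the cholesterol list 1 of 22 genes was called higher (0.244% of all genes were), namely Mylip, which acts on the LDL receptor rather than on synthesis. The cholesterol exporter Abcg1 stood at 0.60 ± 0.16 log2 (adjusted p = 0.0529), and it passed after oxaliplatin alone (0.88 ± 0.22 log2, adjusted p = 0.0394). In the hypoxia list Ndrg1 fell by 0.26 log2 (adjusted p = 0.0111, with 0.203% of all genes called lower), and 22 of 23 did not pass.

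The effect at 6 h was set beside the effects of the same dose at 1 h and 24 h, in other rats. At 1 h no gene passed (0%) in limma, with 474 at an unadjusted p under 0.05. At 24 h 92 genes passed (0.747%), 21 higher and 71 lower. Of the 55 genes called at 6 h, 14 passed at 24 h in the same direction. Of the named genes, 10 of the 12 named falls also passed as falls at 24 h, and 1 of the 12 named rises, Edn1 (0.43 log2, adjusted p = 0.000321), as a rise. Itgax stood at -0.85 log2 at 24 h, Fcmr at -0.79 log2, Lcp1 at -0.69 log2 and Trpc6 at -0.53 log2. The named rises Ccl6 (-0.08 log2), Esm1 (0.10 log2), Cxcr4 (0.04 log2) and Clec7a (-0.07 log2) were near 0 by then, and Rgs2 had fallen by 0.43 log2 (adjusted p = 0.00058).

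The change of the effect with time was tested directly. Between 6 h and 24 h, 11 genes differed (0.0894%), all with the higher effect at 6 h: Ccl6 differed by 1.27 log2 (adjusted p = 8.97e-05), Rgs2 by 0.75 log2 (adjusted p = 5.36e-05) and Ighvl1 by 0.65 log2 (adjusted p = 0.0442). None of the 12 named falls differed between 6 h and 24 h by this test, and for Esm1 the difference of 0.77 log2 did not pass (adjusted p = 0.263). This count leaned on many single arrays. Among 6 h arrays it was 6, 3, 32 and 6 without replicates 1 to 4 of F68 after D5W, 7 and 4 without replicates 3 and 4 of sorafenib after D5W, 4 without replicate 4 of F68 after oxaliplatin, and 6 without replicate 2 or 3 of sorafenib after oxaliplatin. Among 24 h arrays it was 2 without replicate 3 of F68 after D5W, 7 and 5 without replicates 1 and 2 of sorafenib after D5W, 4 and 18 without replicates 2 and 4 of F68 after oxaliplatin, and 6 without replicate 2 of sorafenib after oxaliplatin. After a further quantile normalization 20 passed, 17 higher and 3 lower at 6 h. Between 6 h and 1 h, 9 genes differed (0.0731%), 3 higher at 6 h and 6 lower: Ccl6, Esm1 and Map2k6 on one side, and Slc15a3, Fcmr, Trpc6, C1qb, RT1-DMa and Itgb3 on the other. The effect at 6 h minus that at 1 h was 1.10 log2 for Esm1 (adjusted p = 0.0246) and -0.91 log2 for Slc15a3 (adjusted p = 0.00382).

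**Figure D4:**
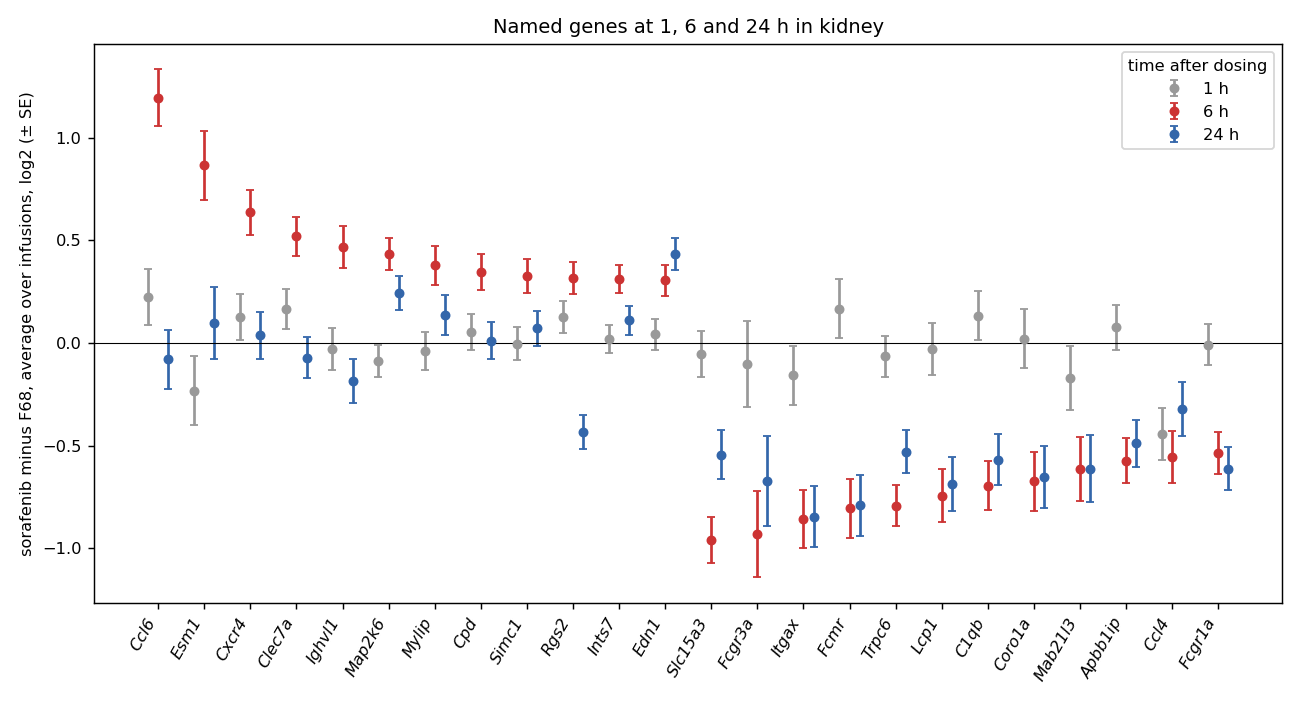
Log2 difference between sorafenib and F68, averaged over both infusions (y axis), for the 24 named genes (x axis) at 1, 6 and 24 h; points are limma estimates and bars are standard errors, each time from its own rats. The 12 falls at the right lie near 0 at 1 h, apart from Ccl4 at -0.44, and stay negative at 24 h, while many rises at the left are near 0 again at 24 h.

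The macrophage list was also lower at 24 h. Its median was 0.05 log2 at 1 h, -0.24 log2 at 6 h and -0.46 log2 at 24 h, with 4 of 18 markers called lower at 6 h (0.203% of all genes) and 9 of 18 at 24 h (0.577% of all genes). Csf1r, not called at 6 h, fell at 24 h (-0.50 log2, adjusted p = 0.00358), as did Aif1 (-1.14 log2, adjusted p = 7.46e-07) and Kdr (-0.49 log2, adjusted p = 0.000228). For these 3 the difference between 6 h and 24 h did not pass. The interferon list had a median of -0.05 log2 at 24 h. One array of sorafenib after D5W at 24 h was left out for its tissue markers, so that side has 7 rats. Another array of this group also stood apart and was kept, and the paper lists the group among possible outliers. The counts of called genes at 24 h alone were not repeated without that array.

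The same rats' livers were used to ask where the kidney effect differed from that of the liver. Of 11277 genes tested in both tissues, 34 differed (0.301%), 26 with the higher difference in kidney and 8 with the lower. Of the 22 named genes measured in both, 6 differed: the kidney difference was the higher for Ccl6, Cxcr4, Clec7a and Rgs2, and the lower for Itgax and Fcmr. Ccl6 stood at -0.22 log2 in liver, a difference of 1.41 log2 between tissues (adjusted p = 8.16e-05). Fcmr stood at -0.06 log2 in liver, a difference of -0.75 log2 (adjusted p = 0.00144), and Itgax at -0.11 log2, a difference of -0.75 log2 (adjusted p = 0.0414). Rgs2 fell in liver by 0.39 log2 (adjusted p = 0.00858). Vwf also differed (0.81 log2, adjusted p = 0.0303).

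In the fit of both tissues at 6 h, 854 of 11277 genes passed in the liver of these rats (7.57%), 199 higher (1.76%) and 655 lower (5.81%). The 55 of 12309 in kidney came from the fit of kidney arrays alone, so both counts are given without a comparison. Of the 22 named genes, 8 passed in the same direction in both tissues: Esm1 rose by 0.90 log2 in liver (adjusted p = 0.035), Map2k6 by 0.90 log2 (adjusted p = 0.00126) and Mylip by 0.39 log2 (adjusted p = 0.0164). Slc15a3 fell by 0.56 log2, Coro1a by 0.72 log2, Apbb1ip by 0.51 log2, Lcp1 by 0.43 log2 and Ccl4 by 0.41 log2 in liver. The count of genes that differed between tissues was 19 without replicate 1 of sorafenib after oxaliplatin or replicate 2 of F68 after D5W in kidney, 21 without replicate 2 of F68 after oxaliplatin or the array with raised liver markers in kidney, and 61 without replicate 2 of F68 after D5W in liver. Arrays of both tissues come from the same rats but were treated as independent, since the labels carry no rat number.

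**Figure D5:**
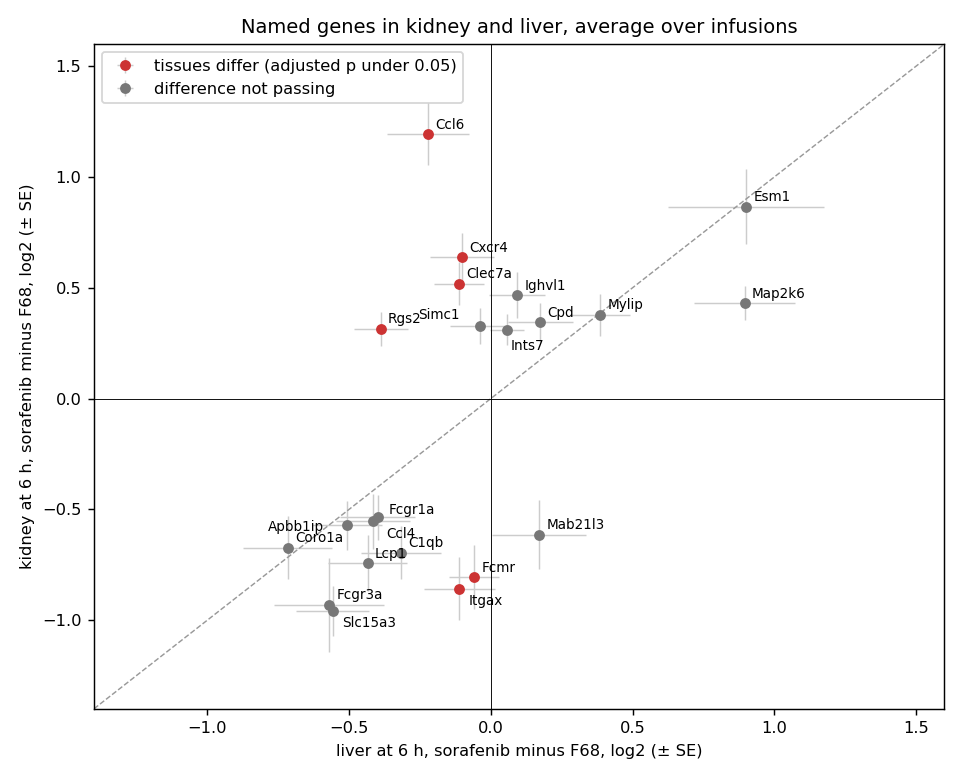
Log2 difference between sorafenib and F68 at 6 h in liver (x axis) and in kidney (y axis), averaged over both infusions, for the 22 named genes measured in both; points are genes, grey bars are standard errors, and red points are genes whose tissues differ at an adjusted p under 0.05. Ccl6, Cxcr4, Clec7a and Rgs2 lie above 0 in kidney and below 0 in liver, and Esm1 is near 0.9 in both.

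Sunitinib, an oral inhibitor of VEGF, PDGF and Kit receptors, was given to other rats at 5 mg/kg in water, on another day. Against water, 0 of 12309 kidney genes passed at 6 h (0%) in limma, with 379 at an unadjusted p under 0.05. Ccl6 stood at 0.17 log2, Esm1 at 0.12 log2, Slc15a3 at -0.21 log2 and Itgax at -0.07 log2. Dose, vehicle and day differ between both drugs, so these values are given side by side without a comparison.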

How the data were processed

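RNA of kidney, liver and heart of 96 rats was hybridized to whole-genome Affymetrix rat arrays. The authors deposited log2 values after robust multi-array averaging (RMA), for 31099 probe sets on 288 arrays, and these were used as given. The gene of a probe set came from the platform annotation; 20826 probe sets have 1 gene symbol, and the brightest in kidney stood for its gene. Genes over 6 log2 on at least 4 kidney arrays were kept, 12309 of 14217. Sample groups came from the titles. limma 3.58.1 in R 4.3.3 fitted 24 group means to 95 kidney arrays, 1 being left out by its tissue markers, with Benjamini-Hochberg adjustment over all genes and a threshold of 0.05. Errors after ± are standard errors. Liver was compared with kidney in a fit of the 64 arrays at 6 h of both tissues. The named genes are the 12 largest rises and 12 largest falls that passed with the same sign after both infusions. All list members and other genes named besides were picked for their size or after their values were seen. The gene lists were chosen with earlier results of these data known, and 2 lists after the values were seen. Of the latter, leukocyte integrins and Fc receptors had 5 of 8 members lower (0.203% of all genes were), a count that the choice of members largely fixed. Tested on simulated data for the average, with 200 changed genes among 12309, the fit recovered 94% of genes changed by 0.5 log2. It recovered 99% of those changed by 1 log2, with 3.98% of calls false. These shares hold for the simulated data only, and the shares on the measured arrays were not tested. Alternatives covered the arrays in the fit, normalization, filter, probe sets, array weights, covariates and each array left out. Arrays give no read depth, and 4 rats a group limit the precision.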

Additional observations from a re-analysis of the deposited data

Results flagged for a closer look

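Of 152 groups of 4 samples examined, 5 held a sample that stood apart from the other 3, and chance gives about 1 group in 20. Clec7a read 8.603 log2 in replicate 1 of sorafenib after oxaliplatin, below the other 3 rats. Fcgr1a read 8.953 log2 in replicate 3 of F68 after D5W, and Flt1 read 7.607 log2 in replicate 4 of that group, each above its neighbours. The liver marker median was 8.392 log2 in replicate 4 of sorafenib after D5W, far above the other 3, and the hybridization control BioB was 8.285 log2 in replicate 2 of that group, below them.

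The effect of sorafenib differed between times or tissues by a direct test in limma for some genes. Between 6 h and 24 h, 11 genes differed, among them Ccl6 by 1.273 log2, Ighvl1 by 0.653 log2 and Rgs2 by 0.7487 log2, each higher at 6 h. Between 6 h and 1 h, 9 genes differed. Ccl6 (0.9694 log2), Esm1 (1.098 log2) and Map2k6 (0.5195 log2) were higher at 6 h. Slc15a3 (-0.9056 log2), Fcmr (-0.9724 log2), Trpc6 (-0.7277 log2) and C1qb (-0.8277 log2) were lower at 6 h. Between kidney and liver, 34 genes differed. The kidney effect was higher for Ccl6 (1.413 log2), Cxcr4 (0.7384 log2), Clec7a (0.6306 log2) and Rgs2 (0.7029 log2), and lower for Itgax (-0.7467 log2) and Fcmr (-0.7461 log2).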

How the results depend on the processing

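For the 24 named genes, 693 values under alternatives were computed: none changed sign, 581 kept their call and 112 did not pass, and 10 genes passed under every alternative run. The average over infusions gave 55 genes, but 16 with only the arrays compared, 25 with all arrays as labelled, 98 after quantile normalization, 111 with array weights, 31 with an actin 3′ minus 5′ covariate, and, in alternatives chosen after seeing the data, 85 without 2 further arrays and 119 with the BioB covariate; leaving out single arrays gave 22 to 63. Median centring gave 56, split 26 higher and 30 lower. After D5W the 9 genes became 5 with the arrays compared, 3 with 6 h arrays and 2 with all arrays, and 5 to 8 without single arrays. After oxaliplatin the 67 became 11, 31 and 8 in the same 3 settings, 126 with quantile normalization, 341 with weights, 21 with actin, 149 without 2 further arrays and 302 with BioB, and 11 to 82 without single arrays. The split there was 35 to 13 with median centring. The interaction stayed at 0 in all settings, and at 0 to 0 without single arrays. Between 6 h and 24 h the 11 became 4 with the arrays compared, 20 with quantile normalization, 7 without a filter, 99 with weights, 2 with actin, 18 with a trended robust fit, 6 without 2 further arrays and 24 with BioB, and 2 to 32 without single arrays. Between 6 h and 1 h the 9 became 3 with the arrays compared, 3 with all arrays, 17 with quantile normalization and 4 with actin, and 6 to 13 without single arrays. The 4 lower macrophage markers became 1 with the arrays compared, 1 with all arrays and 2 with actin, and 2 to 5 without single arrays. The 34 genes that differed between kidney and liver became 12 with the arrays compared, 13 with quantile normalization and 52 with weights, and 19 to 61 without single arrays. The causes were not tested, beyond the fewer samples of the smaller fits. No paired analysis was possible because the labels carry no replicate or rat numbers.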
